A study of Drosophila melanogaster with 6 samples.

Results

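The 10 genes described here are the feedback loop of the circadian clock and 1 of its outputs in adult heads of Drosophila melanogaster: per, tim, Clk, cyc, vri, Pdp1, cwo, cry, dco and to (takeout). They were chosen by FlyBase symbol from the 15886 rows of the deposited expression table, and all 10 had a row. RNA was sequenced from 6 libraries. In 3 of them (RNAi-GLAD 1, 2 and 3) the flies carried TubGS and an RNA interference construct named GLAD, written TubGS>RNAi-GLAD in the labels. In the other 3 (RNAi-Ctrl 1, 2 and 3) they carried TubGS and an RNA interference construct aimed at GFP, which has no counterpart in the fly genome, written TubGS>RNAi-GFP. TubGS is a tubulin-promoter GeneSwitch driver, which switches a construct on in most cells when RU486 is given in the food. All 6 libraries carry the driver and received RU486, and heads were collected on day 7 of induction. No library without the drug or without the driver is among them. The labels name the tissue both head and brain, with 100 pooled per sample, and do not give sex, hour of collection or light schedule. No label names the target of the GLAD construct, and so no targeted gene was read out as a check of the labels.

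The fly clock is a loop in which the proteins CLK and CYC switch on per and tim, and PER and TIM proteins return to the nucleus and shut CLK and CYC off. A second arm runs through vri, a repressor of Clk, and Pdp1, an activator of Clk, while cwo competes with CLK and CYC at their binding sites. CRY is the blue-light receptor that resets the loop by marking TIM for destruction, and dco (doubletime) is the casein kinase that phosphorylates PER. In heads of flies kept in light-dark cycles, mRNA of per, tim and vri is known to swing strongly with a peak in the early night, Clk and cry run in the opposite phase, and cyc and dco are close to constant. The secreted carrier takeout, made in the head fat body and other head tissues, is under clock control and is also known to respond to feeding and to differ between the sexes.

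Levels are FPKM, fragments scaled to gene length and to the depth of the library, so levels of different genes can be set side by side. By the library totals that the values imply, 22.1 to 29.5 M fragments, the 10 genes held between 586 fragments (to) and 27761 fragments (Pdp1) per library. These are approximate, since the totals rest on exon lengths of an annotation release that may not be the authors'. With these totals, the fragments of all genes summed to 26.6 to 35.4 M per library, above the total in each library. Libraries numbered 3 stand with the other group for some transcripts: lncRNA:CR40469 was at 4.20, 4.77 and 1718 FPKM in RNAi-GLAD 1, 2 and 3, against 1935, 2198 and 5.86 FPKM in RNAi-Ctrl 1, 2 and 3. CG32641 was at 0, 0 and 30.3 FPKM in RNAi-GLAD 1, 2 and 3, against 32.2, 34.0 and 0 FPKM in RNAi-Ctrl 1, 2 and 3, and sordd2 had the same split. The labels were kept as given; whether the labels of the 2 libraries numbered 3 are exchanged was not tested, and an exchange would change every fold change from 6 libraries. The tests are therefore given with all 6 libraries and with the 4 numbered 1 and 2. Photoreceptor genes were abundant in all 6 libraries, with ninaE, the main rhodopsin, between 25152 and 26327 FPKM, so RNA of the eye was present.

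The negative limb of the loop differed among libraries more than between the constructs. The gene per (X chromosome, 2685580 to 2692780 in BDGP6, plus strand) was at 9.95, 9.99 and 19.8 FPKM in RNAi-GLAD 1, 2 and 3, against 9.48, 10.3 and 15.6 FPKM in RNAi-Ctrl 1, 2 and 3. In both groups the library numbered 3 stood alone and high, and the other 4 libraries lay within a narrow band. Its neighbour dyw overlaps it by 49 bp of exon on the other strand, at 0.745 to 1.11 FPKM. The partner gene tim (2L, 3493986 to 3508119, minus strand) was at 23.1, 20.8 and 43.9 FPKM in RNAi-GLAD 1, 2 and 3, against 23.6, 23.9 and 34.5 FPKM in RNAi-Ctrl 1, 2 and 3. It repeated the picture of per, with the highest value in RNAi-GLAD 3 and the next in RNAi-Ctrl 3. Against the mean of the libraries numbered 1 and 2 of its own group, per was 1.99-fold higher in RNAi-GLAD 3 and 1.58-fold higher in RNAi-Ctrl 3. For tim the folds were 2.00 in RNAi-GLAD 3 and 1.46 in RNAi-Ctrl 3.

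**Figure D1:**
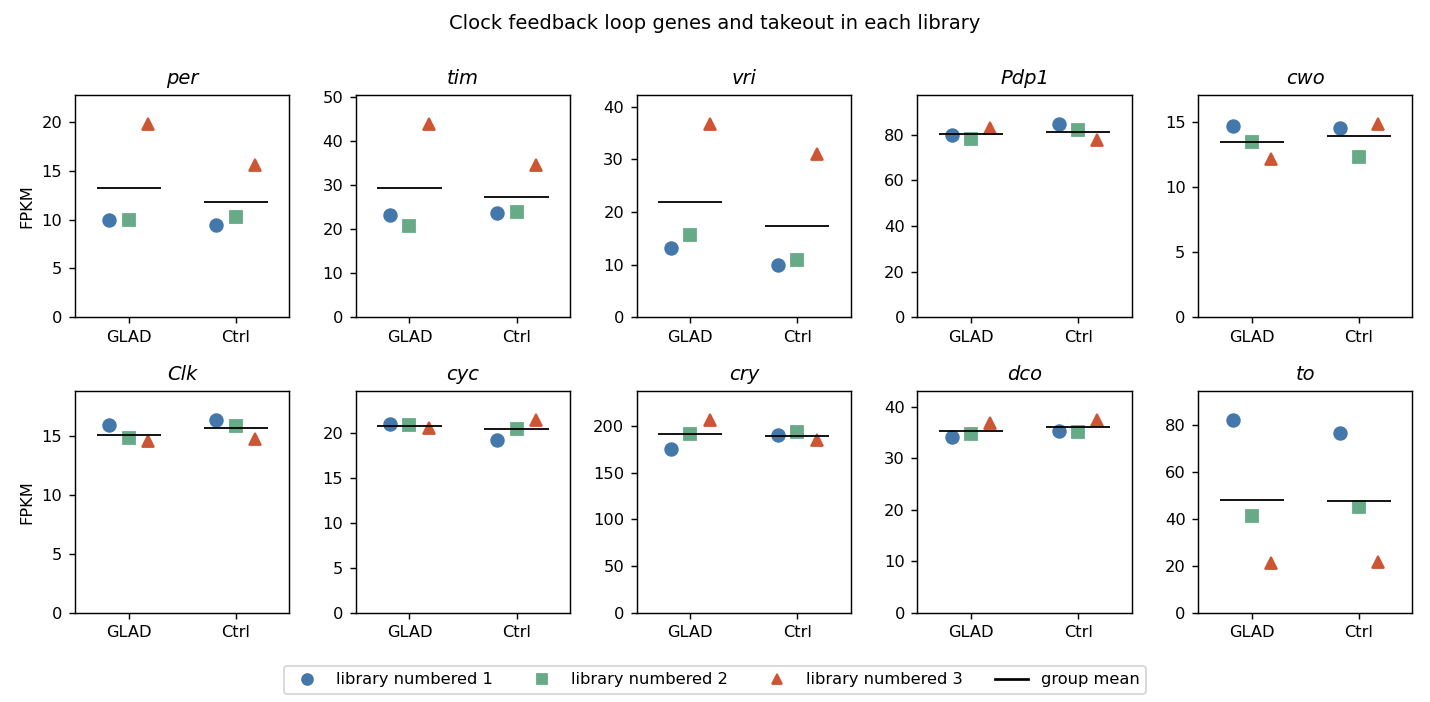
FPKM (vertical axes, each from 0) of the 10 genes in the 6 libraries, RNAi-GLAD on the left and RNAi-Ctrl on the right of each panel; markers give the library number and the bar the group mean. For per, tim and vri the triangle of library 3 lies above the other libraries in both groups, for to it lies below them, and the other 6 genes stay within 1.22-fold over all 6 libraries.

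The second arm held the gene with the widest swing of the loop. The repressor gene vri (2L, 5288944 to 5311223, plus strand) was at 13.1, 15.7 and 36.7 FPKM in RNAi-GLAD 1, 2 and 3, against 9.87, 10.9 and 31.0 FPKM in RNAi-Ctrl 1, 2 and 3. Both libraries numbered 3 were far above the other 4, by 2.55-fold over the mean of numbers 1 and 2 in RNAi-GLAD and 2.98-fold in RNAi-Ctrl. By the labels as given, vri was higher in the RNAi-GLAD library than in the RNAi-Ctrl library within each number. The differences were 0.38, 0.49 and 0.24 on the log2(FPKM + 1) scale for numbers 1, 2 and 3.

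Its counterpart Pdp1 (3L, 7811458 to 7867369, minus strand) was nearly flat, at 79.9, 78.2 and 83.0 FPKM in RNAi-GLAD 1, 2 and 3, against 84.6, 81.9 and 77.5 FPKM in RNAi-Ctrl 1, 2 and 3. Pdp1 has several promoters, only some of whose transcripts are known to cycle, and the table holds 1 value for the whole gene. The gene cwo (3R, 10388258 to 10400752, plus strand) was at 14.7, 13.5 and 12.2 FPKM in RNAi-GLAD 1, 2 and 3, against 14.6, 12.3 and 14.9 FPKM in RNAi-Ctrl 1, 2 and 3. Neither gene followed per, tim and vri: libraries numbered 3 were at opposite ends of their own group's range in the 2 groups.

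The activators and the kinase hardly varied. Clk (3L, 7763233 to 7775603, minus strand) was at 16.0, 14.8 and 14.6 FPKM in RNAi-GLAD 1, 2 and 3, against 16.4, 15.9 and 14.8 FPKM in RNAi-Ctrl 1, 2 and 3. It was lowest in both libraries numbered 3, but only by a ratio of 1.00 to the next library. Its partner cyc (3L, 19813770 to 19815938, minus strand) ranged from 19.2 to 21.5 FPKM, with 20.97, 20.89 and 20.497 FPKM in RNAi-GLAD 1, 2 and 3, against 19.20, 20.47 and 21.46 FPKM in RNAi-Ctrl 1, 2 and 3. The light receptor gene cry (3R, 19212154 to 19215442, plus strand) was the most abundant of the 10, at 175, 191 and 207 FPKM in RNAi-GLAD 1, 2 and 3, against 190, 194 and 185 FPKM in RNAi-Ctrl 1, 2 and 3. The annotation places lncRNA:CR46393 on the same strand over 329 bp of a cry exon, and lncRNA:CR46495 over 545 bp of a tim exon on the other strand; neither was analysed here, and no source used here says how reads there were counted. The kinase gene dco (3R, 31054085 to 31061210, minus strand) was at 34.2, 34.7 and 36.8 FPKM in RNAi-GLAD 1, 2 and 3, against 35.3, 35.2 and 37.5 FPKM in RNAi-Ctrl 1, 2 and 3. Both of its libraries numbered 3 were above the other 4, by a ratio of 1.04.

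The output gene to (3R, 25240180 to 25241668, plus strand) varied most of all. It was at 82.4, 41.4 and 21.2 FPKM in RNAi-GLAD 1, 2 and 3, against 76.8, 45.2 and 21.5 FPKM in RNAi-Ctrl 1, 2 and 3. Its highest library was 3.88-fold above its lowest, yet libraries of the same number but different construct differed by only 0.10, -0.13 and -0.02 on the log2(FPKM + 1) scale for numbers 1, 2 and 3. The level was thus highest in number 1, lower in number 2 and lowest in number 3 in both groups.

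Markers of the tissue and sex in which to is made were set beside it, and their part in its level was not tested. The 7 measured fat body markers, none at 0, summed to 2878, 3793 and 3545 FPKM in RNAi-GLAD 1, 2 and 3, against 2860, 3413 and 3922 FPKM in RNAi-Ctrl 1, 2 and 3, lowest in both libraries numbered 1. Most of the sum is Obp44a, so the sum says little of the other markers. Lsp1beta was also lowest in both libraries numbered 1 and varied more widely. Lsp1beta was at 272, 722 and 615 FPKM in RNAi-GLAD 1, 2 and 3, against 381, 792 and 640 FPKM in RNAi-Ctrl 1, 2 and 3. The markers did not move together, and NLaz was highest in RNAi-GLAD 1, at 50.3 FPKM. Only apolpp had both libraries numbered 3 above the other 4, at 357, 468 and 592 FPKM in RNAi-GLAD 1, 2 and 3, against 453, 530 and 553 FPKM in RNAi-Ctrl 1, 2 and 3. In pooled heads, fewer cells of a type and less RNA per cell cannot be told apart. Among these markers, the lipid transfer gene Apoltp had 35.9, 40.8 and 20.5 FPKM in RNAi-GLAD 1, 2 and 3, against 21.5, 21.5 and 40.2 FPKM in RNAi-Ctrl 1, 2 and 3. It was higher in the comparison of the 4 libraries (adjusted p = 0.0213 with limma, 0.188 without RNAi-Ctrl 1 and 0.178 without RNAi-Ctrl 2). The male-specific RNAs lncRNA:roX1 and lncRNA:roX2 were present in all 6 libraries. Their sums were 353.1 to 385.5 FPKM in RNAi-GLAD and 335.9 to 397.3 FPKM in RNAi-Ctrl. The 8 testis and accessory gland markers summed to 77.9, 0.9 and 5.3 FPKM in RNAi-GLAD 1, 2 and 3. In RNAi-Ctrl 1, 2 and 3 their sums were 3.9, 38.6 and 55.3 FPKM. The 5 measured muscle markers summed to 613.7 to 818.0 FPKM in RNAi-GLAD and 640.3 to 730.5 FPKM in RNAi-Ctrl. Female yolk protein gene Yp1 was at 1.42, 0.735 and 2.28 FPKM in RNAi-GLAD 1, 2 and 3, against 296, 3.28 and 1.75 FPKM in RNAi-Ctrl 1, 2 and 3. The sex-biased gene fit was at 46.9, 33.0 and 16.3 FPKM in RNAi-GLAD 1, 2 and 3, against 7.50, 7.49 and 97.4 FPKM in RNAi-Ctrl 1, 2 and 3, and was higher in the 4 libraries (adjusted p = 0.0186 with limma, 0.172 without RNAi-Ctrl 1 and 0.154 without RNAi-Ctrl 2). Both fit and Apoltp had the opposite order in the libraries numbered 3. Yp2 and Yp3 were, like Yp1, highest in RNAi-Ctrl 1, at 98.6 and 343 FPKM. In the libraries numbered 1, to was at 82.4 FPKM in RNAi-GLAD 1 and 76.8 FPKM in RNAi-Ctrl 1. How sex or fat body content bears on the level of to was not tested. Of the 6 tested genes of the fasting response list, only tobi, a glucosidase gene that responds to diet, had both libraries numbered 3 above the other 4, which held for 8.20% of all tested genes. It was chosen after its values were seen, and was at 68.0, 190 and 274 FPKM in RNAi-GLAD 1, 2 and 3, against 122, 196 and 267 FPKM in RNAi-Ctrl 1, 2 and 3.

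**Figure D2:**
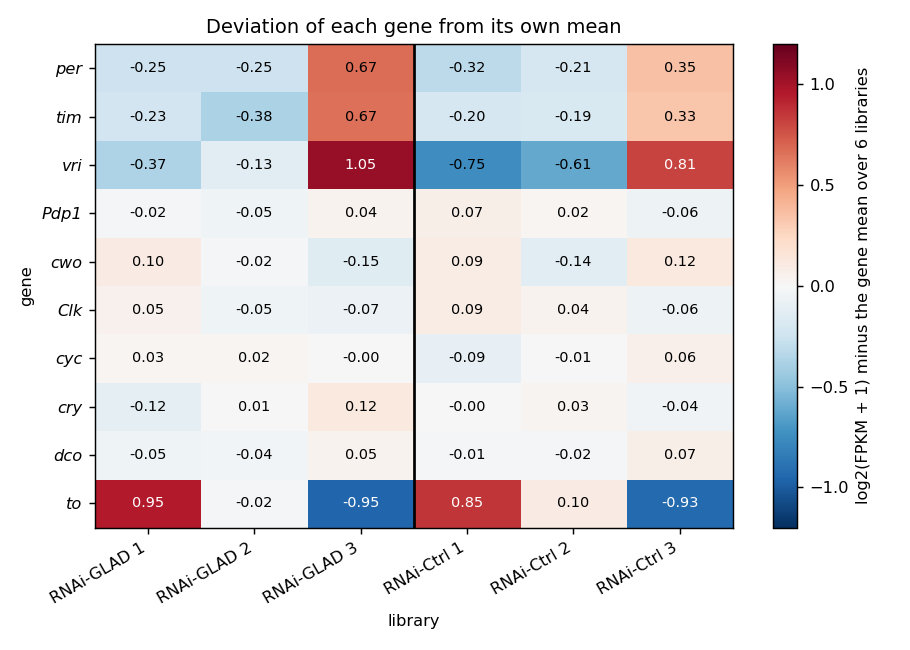
Deviation of log2(FPKM + 1) of each gene (rows) from its own mean over the 6 libraries (columns, RNAi-GLAD left of the line and RNAi-Ctrl right of it), with red above and blue below the mean. The columns of RNAi-GLAD 3 and RNAi-Ctrl 3 share red cells for per, tim and vri and blue cells for to.

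Ordered by the median over the 6 libraries, the levels ran from cry (191 FPKM) and Pdp1 (80.9) through to (43.3), dco (35.2), tim (23.7) and cyc (20.7) to Clk (15.4), vri (14.4), cwo (14.0) and per (10.2). The range of cry did not overlap that of Pdp1, and the range of cyc did not overlap that of Clk. All other neighbours in this order overlapped.

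Whether the GLAD construct changed these genes was tested with limma on log2(FPKM + 1), with positive differences for higher levels in RNAi-GLAD, two-sided and adjusted over all tested genes by the Benjamini-Hochberg method. All 10 genes passed the filter of a mean of at least 1 FPKM. With the 6 libraries, 0 of 10 passed the threshold of 0.05, where 0 of 9631 tested genes (0%) did and 112 (1.16%) had an unadjusted p under 0.05, none of the 10 among them. The median fold change was 0.00 over the 10 genes and 0.01 over all tested genes. For per, the means were 13.2 ± 5.67 FPKM in RNAi-GLAD and 11.8 ± 3.33 FPKM in RNAi-Ctrl (SD, n = 3 each), and the log2 difference was 0.12 with an SE of 0.31 (limma, adjusted p = 0.999). The interval for per ran from -0.63 to 0.86, and that for tim from -0.70 to 0.79. Intervals were wider for vri, from -0.96 to 1.70 around 0.37, and for to, from -1.53 to 1.498 around -0.02. All intervals here are from a fit without the library number. The 6 steady genes were bounded closely, the widest of their intervals being that of cwo, from -0.28 to 0.20. For none of the 10 were the groups free of overlap, as they were for 385 (3.998%) of the tested genes.

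In the 4 libraries numbered 1 and 2, again 0 of 10 genes passed, where 527 of 9661 tested genes (5.45%) did, 396 (4.10%) as higher and 131 (1.36%) as lower, and 2409 (24.9%) had an unadjusted p under 0.05. The median fold change was -0.02 over the 10 genes and 0.02 over all tested genes. The gene nearest to the threshold was vri, at 14.4 ± 1.84 FPKM in RNAi-GLAD and 10.4 ± 0.736 FPKM in RNAi-Ctrl (SD, n = 2 each), a log2 difference of 0.43 with an SE of 0.11 (limma, unadjusted p = 0.0144, adjusted p = 0.108). By the labels as given, its direction was the same in the libraries numbered 3. It would be the opposite there if those labels are exchanged, which was not tested. For per the difference between the constructs was 0.01 ± 0.06 in these 4 libraries and 0.32 between RNAi-GLAD 3 and RNAi-Ctrl 3. For tim it was -0.11 ± 0.07 in the 4 libraries, from -0.18 to -0.034 with 1 of them left out, and 0.34 between the libraries numbered 3, a pair with no replicate. Groups did not overlap for tim, cyc, vri, Pdp1 and dco, 5 of 10, in a setting where 56.5% of tested genes were free of overlap.

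**Figure D3:**
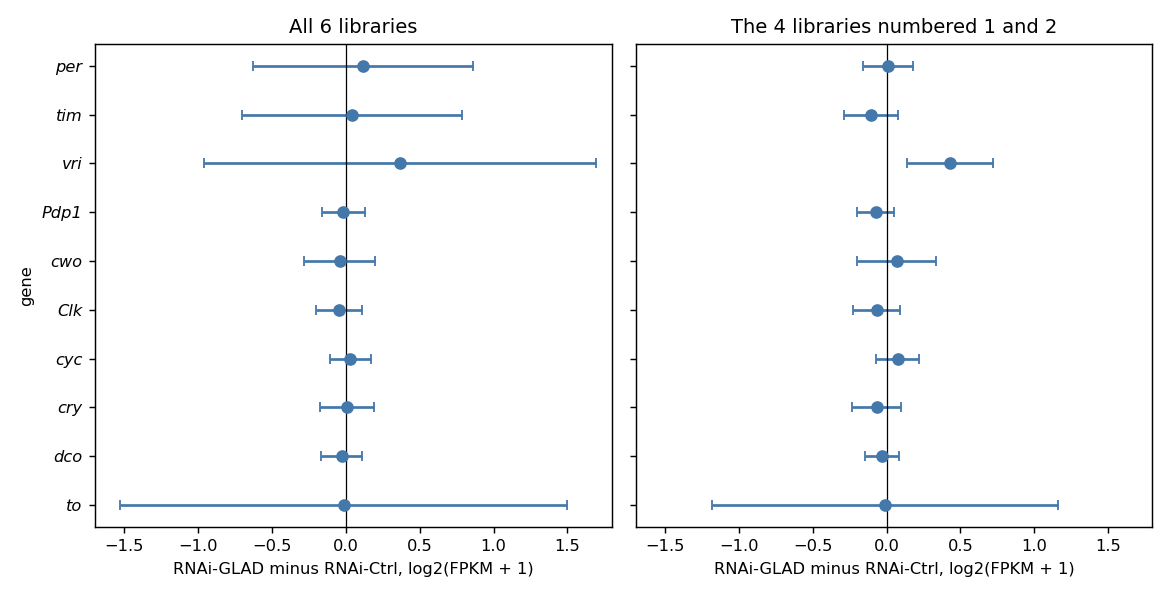
Log2 fold change of each gene, positive where RNAi-GLAD is higher, from log2(FPKM + 1) values, with 95% confidence intervals from limma, for all 6 libraries (left) and for the 4 libraries numbered 1 and 2 (right). Every interval on the left spans 0, and on the right the unadjusted interval of vri alone lies above 0, from 0.14 to 0.72.

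The libraries numbered 3 were then set against the other 4 for all tested genes, as a description with no test. Both were above the other 4 for per, tim, vri and dco, 4 of 10 genes, where this held for 8.20% of tested genes. Both were below for Clk and to, 2 of 10, where this held for 7.58%. By a ratio over 1.4, which was set after the values were seen, 13 of 9631 genes (0.135%) were above, among them vri (ratio 1.97), per (1.52) and tim (1.45), and 17 (0.177%) were below, among them to (1.92). The members nearest to this limit on its other side were dco, at 1.04 above, and Clk, at 1.00 below. The ratio of vri had rank 4 among all 9631 genes, behind tRNA:Ala-CGC-1-1 and a transcript outside the reference, both of low level, and CAH5, a carbonic anhydrase gene, at 14.8 FPKM in RNAi-GLAD 3 and 14.8 FPKM in RNAi-Ctrl 3. The same counts were made for the other numbers. Both libraries numbered 1 were above the other 4 for Clk and to (7.30% of tested genes) and below for per (5.34%), and both numbered 2 were above for 0 of the 10 (2.83%) and below for 0 (6.42%). By a ratio over 1.4, both libraries numbered 1 were above for 29 genes (0.301%), to among them, and below for 8 (0.0831%), none of the 10. Both numbered 2 were above by that ratio for 4 genes (0.0415%) and below for 24 (0.249%), again none of the 10. The level of to was thus beyond this limit in both numbers, high in 1 and low in 3. The differences of the libraries numbered 3 for per, tim, vri and to went the same way in both groups, whereas most genes did not. The difference of library 3 from the mean of libraries 1 and 2 had opposite signs in the 2 groups for 6049 genes and the same sign for 3581, or 37.2%. An exchange of the labels of the libraries numbered 3, which was not tested, would alter this share. Among the 10 genes the sign was the same for 6.

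**Figure D4:**
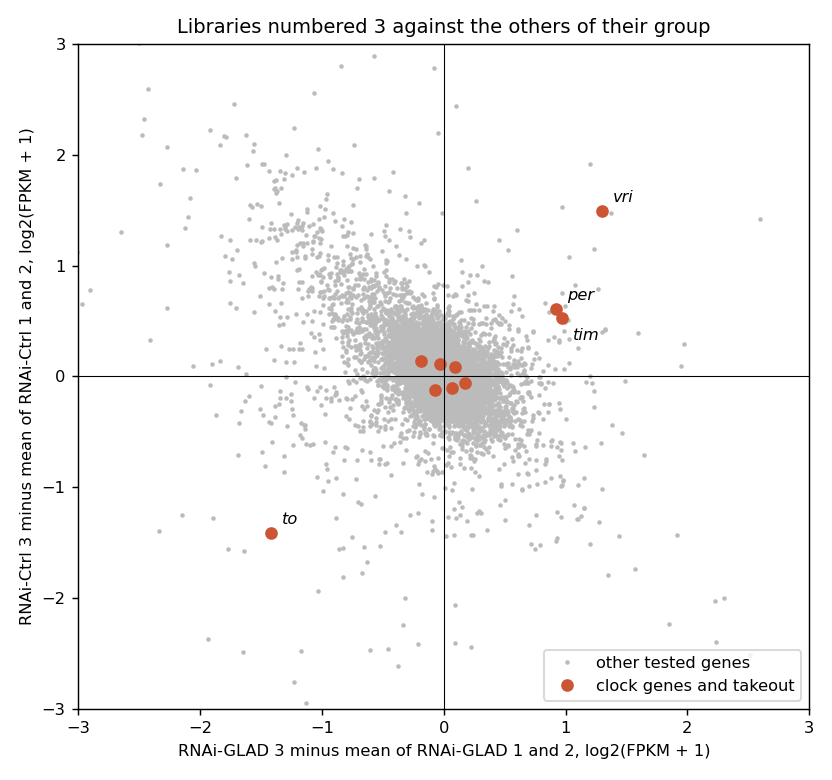
Difference of library 3 from the mean of libraries 1 and 2, on the log2(FPKM + 1) scale, in RNAi-GLAD (horizontal) and in RNAi-Ctrl (vertical) for all tested genes (grey) and the 10 genes (orange); 36 genes lie outside the plotted range. Most of the cloud runs from upper left to lower right, while vri, per and tim lie in the upper right and to in the lower left.

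Of 7 kinase and phosphatase genes for PER and TIM (sgg, CkIIalpha, CkIIbeta, nmo, mts, tws and wdb), 0 passed in the 6 libraries and 1 passed as lower in the 4 libraries, where 1.36% of all tested genes did. The median log2 fold change in the 4 libraries was -0.13, with 5 of 7 below 0, against 0.02 over all tested genes. CkIIalpha, mts and tws had log2 fold changes of 0.05, -0.04 and -0.06 with 6 libraries and 0.12, -0.00 and -0.14 with 4, and sgg, chosen after its values were seen, had -0.07 with 6 and -0.21 with 4 (adjusted p = 0.109 with limma). The gene that passed was CkIIbeta, the regulatory subunit of casein kinase 2, at 48.2, 48.8 and 63.1 FPKM in RNAi-GLAD 1, 2 and 3, against 67.7, 63.9 and 50.7 FPKM in RNAi-Ctrl 1, 2 and 3. It fell by 0.43 on the log2 scale in RNAi-GLAD 1 and 2 (SE 0.05, adjusted p = 0.0305 with limma), and the libraries numbered 3 had the opposite order. Without any 1 of the 4 libraries the adjusted p was 0.0694 to 0.209, so the call rests on all 4. Of 6 measured genes of PER, TIM and CRY turnover and of 3 for the translation of per, 0 passed in either comparison. Among all tested genes, 0% passed with 6 libraries and 5.45% with 4. SkpA and BRWD3 alone had both libraries numbered 3 above the other 4, by a ratio of at most 1.01. Both were above for 8.20% of all tested genes. The log2 fold changes with 6 libraries were 0.08 for jet, -0.05 for Cul3, -0.04 for BRWD3 and -0.09 for qsm, and -0.01 for tyf, 0.01 for Atx2 and 0.05 for Lsm12a. With 4 libraries they were 0.17 for jet, 0.01 for Cul3, -0.07 for BRWD3 and -0.17 for qsm, and -0.08 for tyf, -0.11 for Atx2 and 0.05 for Lsm12a.

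Of 11 peptides and receptors of the clock neurons, 0 passed in either comparison, where 0% of all tested genes did with 6 libraries and 5.45% with 4. Both libraries numbered 3 were above the other 4 for 0 of 11 and below for 0, where this held for 8.20% and 7.58% of all tested genes, so counts of 0 in a list of this size are near the background. Pdf, the peptide of the lateral clock neurons, was at 130, 123 and 104 FPKM in RNAi-GLAD 1, 2 and 3, against 107, 109 and 130 FPKM in RNAi-Ctrl 1, 2 and 3. Here RNAi-Ctrl 3 lay with RNAi-GLAD 1 and 2, and RNAi-GLAD 3 with RNAi-Ctrl 1 and 2. CNMa, a peptide of dorsal clock neurons, showed the same split at a low level, with 4.88, 3.10 and 1.34 FPKM in RNAi-GLAD 1, 2 and 3, against 1.72, 1.03 and 4.65 FPKM in RNAi-Ctrl 1, 2 and 3. In the 4 libraries the log2 fold change of CNMa was 1.06 (adjusted p = 0.106 with limma), and that of Pdf also missed the threshold. By the smallest p with 6 libraries, AstC, Dh31, Dh44 and Pdfr led this list, at -0.12, -0.06, 0.08 and -0.08. With 4 libraries AstC, Dh31, Dh44 and Pdfr were at -0.22, -0.05, 0.20 and -0.25, the smallest adjusted p being 0.0823 for Dh44.

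Other genes known to cycle in heads or to carry clock output were set beside the loop. Of 10 tested, 0 passed in either comparison, where 0% of all tested genes did with 6 libraries and 5.45% with 4. Of the 10, 4 had both libraries numbered 3 above the other 4 (Slob, trpl, Cyp4d21 and Fmr1) and 1 below (Gclc), where 8.20% and 7.58% of tested genes did. By the smallest p with 6 libraries, Crg-1, Mid1, Cyp4d21 and Mef2 led this list, at -0.23, -0.10, 0.13 and 0.03, and with 4 libraries they were at -0.20, -0.21, 0.24 and 0.04. Slob, which binds the potassium channel Slowpoke, was at 90.2, 89.7 and 124 FPKM in RNAi-GLAD 1, 2 and 3, against 95.3, 101 and 113 FPKM in RNAi-Ctrl 1, 2 and 3. The photoreceptor channel gene trpl was at 968, 1013 and 1587 FPKM in RNAi-GLAD 1, 2 and 3, against 1003, 1164 and 1359 FPKM in RNAi-Ctrl 1, 2 and 3. Both were highest in RNAi-GLAD 3 and next in RNAi-Ctrl 3, the order seen for per, tim and vri. The 9 measured photoreceptor markers, which do not include trpl, summed to 39171 to 40463 FPKM in RNAi-GLAD and 39604 to 40426 FPKM in RNAi-Ctrl. Most of that sum is ninaE and Arr2, so it says little of the other markers, some of which varied more. Of the 9 markers, 0 had both libraries numbered 3 above the rest and 1, Arr2, had both below. Likewise 0 of 7 pan-neuronal and 0 of 6 glial markers had both above, while 2 neuronal markers and 1 glial marker had both below. Of 8 tested relatives of to, a list that does not hold Jhbp11, 0 were below in both libraries numbered 3 and 2 were above. Those above were Jhbp7 by a ratio of 1.1995 and Jhbp1 by 1.02. In either comparison 0 of the 8 passed, where 0% of all tested genes did with 6 libraries and 5.45% with 4. Jhbp12 and Jhbp5, with Jhbp7 and Jhbp1 the 4 of smallest p with 6 libraries, had log2 fold changes of -0.24 and -0.28 with 6 libraries and -0.24 and 0.14 with 4; Jhbp7 and Jhbp1 had -0.07 and 0.04 with 6 and -0.06 and 0.06 with 4. Of 8 sleep regulators and of 6 fasting response genes 0 passed in either comparison, against the same 0% and 5.45% of all tested genes. The sleep regulators were led with 6 libraries by insc (0.18), GABA-B-R1 (-0.09), qvr (-0.08) and DAT (0.05), which with 4 had 0.30, -0.12, -0.17 and 0.10. The fasting response genes were led with 6 libraries by Lip4 (0.28), Thor (0.20), bmm (0.11) and AkhR (-0.08). With 4 they had 0.68, 0.33, 0.24 and -0.11 (adjusted p = 0.0986 for Lip4 with limma).

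A search over 1337 genes with a mean of at least 5 FPKM and an SD of at least 0.2 log2 units gave those most like part of the loop. The pattern was the mean deviation of per, tim, vri, Pdp1 and cwo, which was -0.15, -0.16 and 0.46 log2 units in RNAi-GLAD 1, 2 and 3, against -0.22, -0.22 and 0.31 in RNAi-Ctrl 1, 2 and 3. Its swing came mostly from vri, per and tim, since Pdp1 and cwo varied little. Over the 6 libraries, which all genes share, the highest Pearson correlations were those of Jhbp11 (0.994), Obp56a (0.987), Usp8 (0.980), Sidpn (0.973), FBgn0050497 (0.968) and mwh (0.964). Jhbp11 bears the same series of symbols as most listed relatives of to. It was at 18.2 FPKM in RNAi-GLAD 3 and 17.1 FPKM in RNAi-Ctrl 3, with all others at 12.8 to 13.5 FPKM. Usp8, which encodes a deubiquitinase, was at 20.3, 20.0 and 41.1 FPKM in RNAi-GLAD 1, 2 and 3, against 19.0, 21.7 and 32.1 FPKM in RNAi-Ctrl 1, 2 and 3. Its levels in the 6 libraries were close to those of tim. Obp56a, an odorant binding protein gene, was at 63.9 FPKM in RNAi-GLAD 3 and 47.2 FPKM in RNAi-Ctrl 3, with all others at 24.9 to 30.7 FPKM.

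At the other end stood FBgn0036960 (-0.993), Achl (-0.986), fipi (-0.973), CG34134 (-0.970), pinta (-0.967) and CG13631 (-0.958). Achl (achilles) was at 37.0, 44.8 and 10.2 FPKM in RNAi-GLAD 1, 2 and 3, against 39.0, 39.8 and 15.6 FPKM in RNAi-Ctrl 1, 2 and 3. Both libraries numbered 3 were thus the low ones, in mirror image to vri. The genes most like to were CG10553 (0.987), CG6908 (0.961), lectin-46Cb (0.961), CG34134 (0.959), FBgn0030469 (0.947) and CG12116 (0.942). CG34134, which is in both searches, was at 138, 98.6 and 33.4 FPKM in RNAi-GLAD 1, 2 and 3, against 133, 105 and 39.5 FPKM in RNAi-Ctrl 1, 2 and 3. With 6 libraries and a choice among 1337 genes, correlations of this size carry no test.

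**Figure D5:**
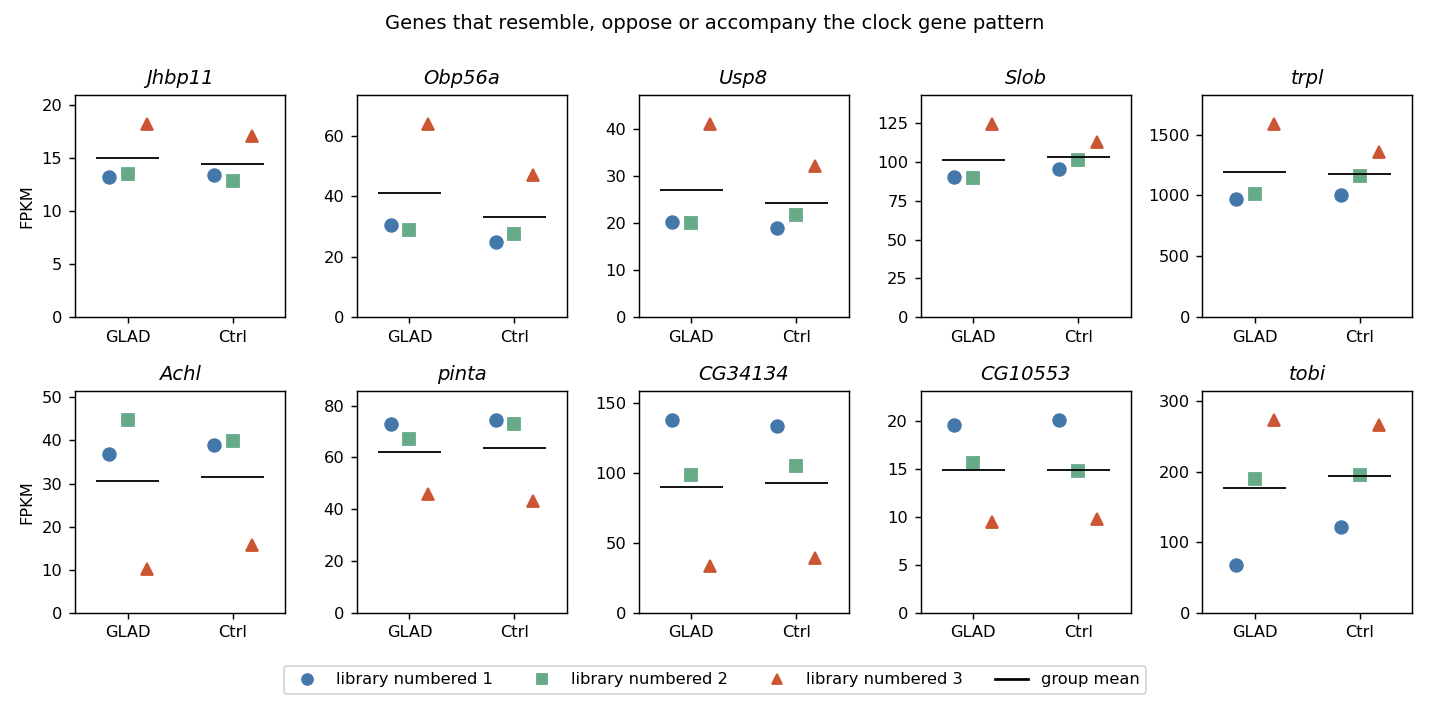
FPKM (vertical axes, each from 0) of 10 further genes in the 6 libraries, RNAi-GLAD on the left and RNAi-Ctrl on the right of each panel, with markers for the library number and a bar for the group mean. Jhbp11, Obp56a, Usp8, Slob, trpl and tobi are highest in both libraries numbered 3, and Achl, pinta, CG34134 and CG10553 are lowest there.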

How the data were processed

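Per the labels' protocols, total RNA was prepared with TRIzol, libraries with a NEBNext Ultra kit, and sequencing was paired-end with 150 bp reads on an Illumina instrument. The authors deposited FPKM values, 1 column per sample; the submitters' processing notes list TopHat, BDGP6 and dm6, and no source used here gives the counting tool, strand setting or annotation. Of 15682 FlyBase IDs, 15002 matched a symbol; places and exon lengths are from Ensembl release 115 (BDGP6). Library totals are those at which low values times exon length are whole fragments: 36.6% to 41.4% of values worth up to 200 fragments were whole within 0.02. FPKM were not rescaled. limma 3.58.1 (R 4.3.3; lmFit, eBayes with trend) was run on log2(FPKM + 1) of all genes with a mean of at least 1, with Benjamini-Hochberg adjustment, and checked on simulated data. A fold change on this scale understates changes of low genes. Nothing says that replicates were separate cultures, so the p-values cover only how these samples spread, which may be technical.

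The genes, lists and comparisons were chosen with earlier results of these data known. The naming rule was all 10 genes and, of each other list, up to 4 genes of smallest p with 6 libraries. Any gene under the threshold in either comparison was added. For fat body, male, testis and accessory gland, muscle and photoreceptor markers sums are given instead. Called markers and some that differ from the sum are named. Female markers are given by gene, and glial and pan-neuronal markers by counts only. Pdf, CNMa, tobi, Slob, trpl, Fmr1, Gclc, SkpA, sgg, Lsp1beta, CAH5 and tRNA:Ala-CGC-1-1 fall outside the naming rule and were chosen after their values were seen. Likeness used Pearson's r, 6 genes per end. Alternatives are listed in the closing section. Plots used matplotlib 3.10.9 (Python 3.11.15).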

Additional observations from a re-analysis of the deposited data

How the results depend on the processing

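The count of 0 clock genes passing held under every alternative run for both comparisons (170 and 120 refits of single genes, smallest adjusted p = 0.108 and 0.0542), that is pseudocounts of 0.1 and 0.5, no filter, a mean of at least 5 FPKM, both scalings, no trend, the replicate block and each library or number left out. The count of all genes was 0 with 6 libraries and became 527 without both libraries numbered 3. In the 4 libraries, 527 became 254 with no filter, 165 with no trend and 1 to 329 without each library. A fit that leaves an arm with 1 library assumes that it varies like the others. Both scalings left the counts of clock genes with libraries numbered 3 above (4) and below (2) as they were. Leaving out a library numbered 1 or 2 cannot lower these counts by their definition, and it did not raise them. Without RNAi-GLAD 3 the counts were 6 and 3, and without RNAi-Ctrl 3 they were 5 and 3. With 1 library numbered 3, that library is more easily beyond the rest. Shares over all tested genes were not worked out under these alternatives. These alternatives were added after seeing the data.

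Signs of small fold changes turned, with no call. With 6 libraries cry became -0.0026 under median-of-ratios scaling; without both libraries numbered 1 cyc became -0.018, Pdp1 0.015, fit -0.25, Apoltp -0.022, CNMa -0.13 and Pdf -0.075; without both numbered 2 Pdp1 became 0.0080, to 0.040, fit -0.0074, Apoltp -0.11, CNMa -0.080 and Pdf -0.021; without both numbered 3 tim became -0.11, cwo 0.068 and cry -0.069. In the 4 libraries per became -0.013 and -0.0024 under median-of-ratios and trimmed-mean scaling. With single libraries left out of the 6, the ranges were -0.19 to 0.32 for per, -0.28 to 0.24 for tim, -0.065 to 0.86 for vri, -0.012 to 0.065 for cyc, -0.051 to 0.012 for Pdp1, -0.12 to 0.021 for cwo, -0.050 to 0.068 for cry, -0.50 to 0.46 for to, -0.031 to 0.71 for CNMa and -0.025 to 0.13 for Pdf. Out of the 4, they were -0.044 to 0.066 for per, -0.043 to 0.18 for cwo and -0.50 to 0.48 for to, and, with no change of sign, -0.18 to -0.034 for tim, -0.12 to -0.016 for Clk, -0.13 to -0.0075 for cry, 0.030 to 0.12 for cyc, 0.31 to 0.55 for vri, -0.098 to -0.052 for Pdp1 and -0.040 to -0.020 for dco. With no trend in the 4 libraries, CkIIbeta and Apoltp no longer passed (adjusted p = 0.0667 and 0.0514 with limma). The causes were not tested.

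Over all genes, deviations from the group means correlated between libraries of one number at -0.354, -0.404 and -0.460. Over the 10 clock genes alone they correlated at 0.985, 0.716 and 0.949. Of the 10, to, vri, per and tim varied most, with SDs of 0.83, 0.75, 0.41 and 0.40 log2 units over the 6 libraries. The next was cwo at 0.12, so the values over the 10 genes mostly restate to, vri, per and tim. The negative values over all genes cannot decide whether libraries of one number are pairs. An exchange of labels between the groups, which was not tested, would also alter them. The main fits did not take the numbers as pairs, so their SE includes differences between numbers. With the replicate block, 0 clock genes and 0 genes passed with 6 libraries and 0 and 512 with 4. With 6 libraries and the block, the log2 difference of vri was 0.37 with an SE of 0.074 in place of 0.54. Its adjusted p was 0.999 with limma, in a fit where 0 genes passed. For to the SE was 0.072 in place of 0.62. FPKM of one value per gene cannot show isoforms that cycle apart from the rest.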
